A study of Saccharomyces cerevisiae with 18 samples.

Results

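Zinc uptake and storage genes of yeast, together with the gene of their activator Zap1, were followed across 6 extracts of the horsetail Equisetum arvense. The 10 genes were ZRT1, ZRT2, ZRT3, ZAP1, ZPS1, ADH4, ZRC1, IZH1, IZH2 and IZH4. They were chosen by name, with the low ZRT1 and ZAP1 signals of the USA #6 arrays already known. Each gene was read by 1 probe set, so 10 of the 5716 probe sets tested belonged to them. Because values of USA #6 against control were known at the choice, that comparison is given as a description, with no p-values. Comparisons of the other 5 extracts with control used the same 4 control arrays. Their p-values for ZRT1 and ZAP1 are therefore not fully apart from the choice. The comparison of the other 5 extracts with each other used neither the USA #6 nor the control arrays in its contrast.

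Yeast takes up zinc mainly through transporters in the plasma membrane and keeps excess zinc in the vacuole. When zinc is scarce, the transcription factor Zap1 binds zinc-responsive elements in its target promoters and raises uptake, release from the vacuole and its own expression. When zinc is plentiful, Zap1 is inactive and these genes are expressed at low levels. Most of the 10 genes have been described as targets of Zap1, with ZRT1 among the most responsive.

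The yeast was BY4743, a diploid laboratory strain homozygous for his3Δ1, leu2Δ0 and ura3Δ0 and heterozygous for met15Δ0 and lys2Δ0, and every group carried this genotype. Log-phase cultures in minimal medium with uracil were exposed for 20 min to dried extract at 2.5 mg/mL. The groups were USA #2, USA #6, USA #7, Europe #11 and India #13 with 2 arrays each, China #8 with 4 arrays, and control with 4 arrays. Control cultures received no extract; the labels call them non treated, and the study's text also calls them vehicle only. The study describes the cultures as biological replicates. The arrays read the RNA of whole cultures, so a lower level in every cell and a low level in some of the cells cannot be told apart. Values are log2 signals, in which a difference of 1 is a 2-fold change, and "lower" or "higher" always means extract relative to control.

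Of the control and China #8 arrays, 2 each carry an earlier date in their names than the other 14 arrays, and the names do not say what the date marks. The 3′ minus 5′ difference of the 18S rRNA probe sets was -1.54 to -1.12 on the 4 control and China #8 arrays of the second date. It was -2.85 to -2.08 on the 4 arrays of the first date and -2.83 to -2.34 on the 10 arrays of the other extracts. The control arrays that read apart from the other extracts in this measure were thus those of the second date, which the other extracts share. The part of this difference in the results was not tested. The comparisons with control were also fitted with the arrays of the second date alone and with the date as a block. A further fit left out the control and China #8 arrays of the second date. Each changed call with the extracts other than USA #6 is given with its gene. Probe sets of the deleted genes LEU2 and URA3 averaged 3.58 and 3.23, near the lowest value of the table, 2.73. HIS3 averaged 11.5 although the genotype carries a deletion in it, which removes only part of the gene. Of 8 haploid-specific genes, 6 did not exceed 6.62 on any array, whereas STE2 and RME1 lay at 7.25 to 7.88 and 9.02 to 10.2.

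With USA #6, 6 of the 10 genes lay below control and below every array of the other extracts, namely ZRT1, ZRT2, ZRT3, ZAP1, ZPS1 and ADH4. IZH2 and IZH4 lay above all 4 control arrays, and ZRC1 and IZH1 overlapped them. At the threshold used for the other extracts (adjusted p of 0.05 in limma), 2 of the 10 genes were higher and 6 lower with USA #6, where 4.11% of all probe sets were higher and 2.90% lower. The median difference of the 10 genes was -0.77, against -0.00 over all probe sets. Since this contrast was known at the choice of the genes, nothing is read from these counts.

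With each of the other 5 extracts, 2 to 5 of the 10 genes passed the test. Some of these counts, such as those with China #8, are near the share over all probe sets. Nothing particular to the 10 genes is read from the counts. USA #2 raised IZH4, IZH2 and ZRC1 and lowered ZAP1, beside 10.7% of all probe sets higher and 8.48% lower. USA #7 raised the same 3 genes and lowered none, beside 20.4% higher and 19.1% lower. China #8 raised ZRC1 and IZH2 and lowered ZRT2 and ZAP1, beside 19.9% higher and 20.1% lower. Europe #11 raised IZH2 and IZH4, beside 12.4% higher and 10% lower. India #13 raised IZH4 and IZH2 and lowered ZAP1, ZRT1 and ZRT3, beside 14.2% higher and 14.6% lower. The calls are adjusted p under 0.05 by limma, and all these comparisons share the 4 control arrays. With only the compared groups in the fit, none of the 10 genes was called with China #8 or with Europe #11. The median difference of the 10 genes was 0.03 with USA #2, 0.16 with USA #7, -0.16 with China #8, 0.09 with Europe #11 and 0.01 with India #13. Over all probe sets these medians were 0.00, 0.01, 0.00, 0.03 and 0.02 in the same order.

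**Figure D1:**
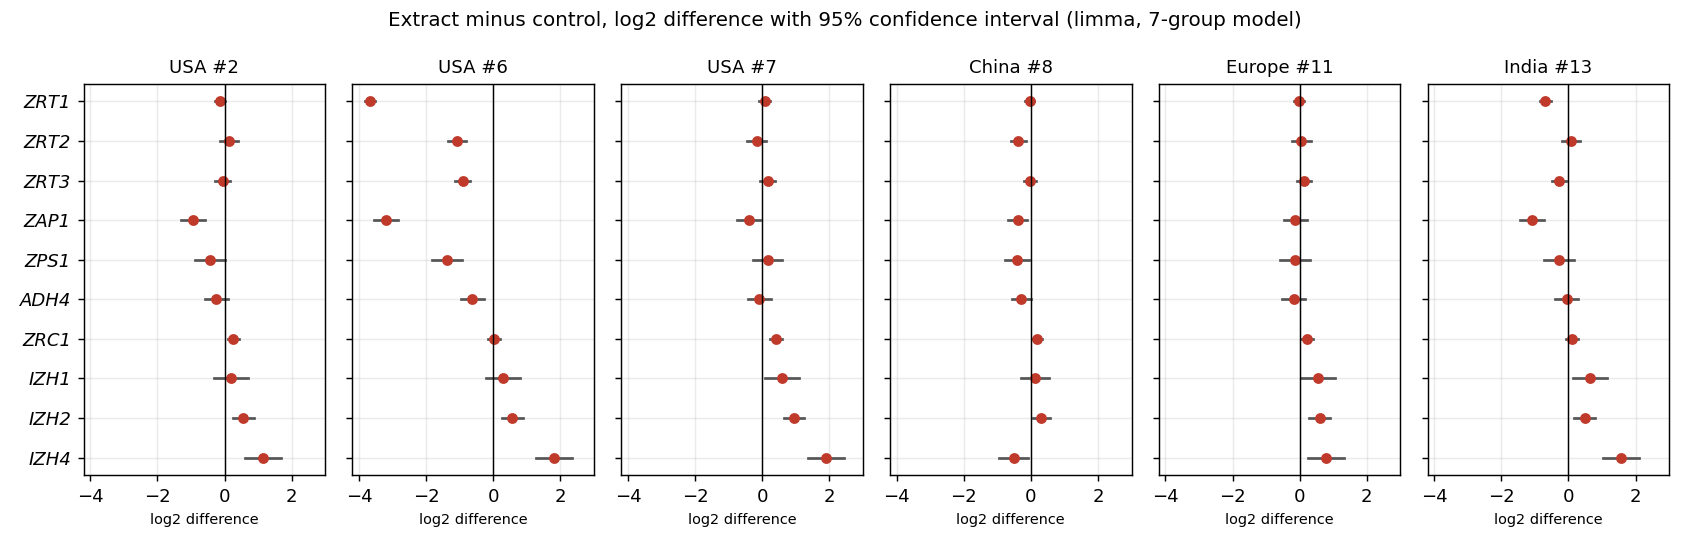
Log2 difference of each gene between extract and control arrays, 1 panel per extract, with points for the estimate of the 7-group limma model and lines for its 95% confidence interval. ZRT1 and ZAP1 stand at -3.68 and -3.21 with USA #6, and IZH4 lies above 0 with 5 extracts and at -0.51 with China #8.

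When the 5 extracts other than USA #6 were compared with each other, 6 of the 10 genes differed among them, where 29.8% of all probe sets did (limma F-test, Benjamini-Hochberg). These were IZH4 (F = 31.5, adjusted p = 0.000123), ZRT1 (F = 27.5, adjusted p = 0.000249) and ZAP1 (F = 9.68, adjusted p = 0.00764), followed by ZRT2, IZH2 and ZRT3 with adjusted p-values of 0.0238, 0.0410 and 0.0460. ZPS1, ZRC1, ADH4 and IZH1 did not pass, with adjusted p-values between 0.127 and 0.655. The spread between the highest and the lowest of the 5 extract means was 2.41 for IZH4, 0.97 for ZAP1, 0.76 for ZRT1 and 0.23 for ADH4. Leaving out 1 array at a time left 3 to 5 genes, and the 3 came without USA #2 replicate 1.

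ZRT1 encodes the high-affinity zinc transporter of the plasma membrane. Its log2 signal was 9.79 and 9.99 on the USA #6 arrays, against 13.51, 13.60, 13.55 and 13.62 on the control arrays. The difference was -3.68 (SE 0.07), or 12.8-fold lower, and was the lowest of all 5716 probe sets in this comparison. On the India #13 arrays ZRT1 read 12.87 and 12.90, below every control array and below every array of the other 4 extracts apart from USA #6. Here it fell by 0.69 (SE 0.07, adjusted p = 1.73e-05, limma), 1.61-fold, and the call held without any single array and under each date and normalization alternative (adjusted p at most 0.000748). The remaining arrays lay close together. They read 13.39 and 13.49 with USA #2, 13.66 and 13.63 with USA #7, 13.54, 13.56, 13.45 and 13.56 with China #8, and 13.57 and 13.53 with Europe #11. None of these 4 extracts passed the test, and their differences from control ran between -0.13 and 0.07, with 95% confidence intervals within -0.29 to 0.23. In order of mean level, USA #7 was followed by control, Europe #11, China #8, USA #2, India #13 and USA #6. The USA #7 arrays lay above every control array, at 13.63 or more against 13.62 or less. Control, Europe #11, China #8 and USA #2 each overlapped with the next among them. The steps to India #13 and to USA #6 did not overlap.

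ZAP1 encodes the zinc-sensing transcription factor, which activates its own gene. It read 6.51 and 6.94 with USA #6, against 9.73, 10.02, 9.79 and 10.19 on the control arrays. The difference of -3.21 (SE 0.16), 9.25-fold lower, was the second lowest of all probe sets. ZAP1 had a lower mean than control with all 6 extracts, all set against the same 4 control arrays. India #13 arrays read 8.87 and 8.81, and USA #2 arrays 8.91 and 9.07, all below every control array. ZAP1 fell by 1.09 with India #13 (SE 0.16, adjusted p = 0.000370) and by 0.95 with USA #2 (SE 0.16, adjusted p = 0.00198), both by limma and both held without any single array (adjusted p at most 0.0331). India #13 thus lowered ZAP1 and ZRT1, and with USA #2 the ZRT1 difference of -0.13 (SE 0.07) did not pass the test, although these 2 extracts were not tested against each other. On the China #8 arrays ZAP1 read 9.78, 9.66, 9.17 and 9.55, which overlapped control. The fall of 0.40 (SE 0.13, adjusted p = 0.0296) was -0.16 among arrays of the first date and -0.63 among those of the second, and the call was lost without the second-date arrays of both groups (adjusted p = 0.399), without China #8 replicate 3 (-0.28) or 4, or without control replicate 2 or 4 (adjusted p between 0.0509 and 0.0955). USA #7 arrays at 9.45 and 9.61 lay below every control array, but the difference of -0.40 had an adjusted p of 0.0639. That difference passed with control arrays of the second date only (-0.46, adjusted p = 0.0436). Europe #11 arrays read 9.81 and 9.81, inside the control range, with a difference of -0.12 (95% confidence interval -0.48 to 0.23).

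**Figure D2:**
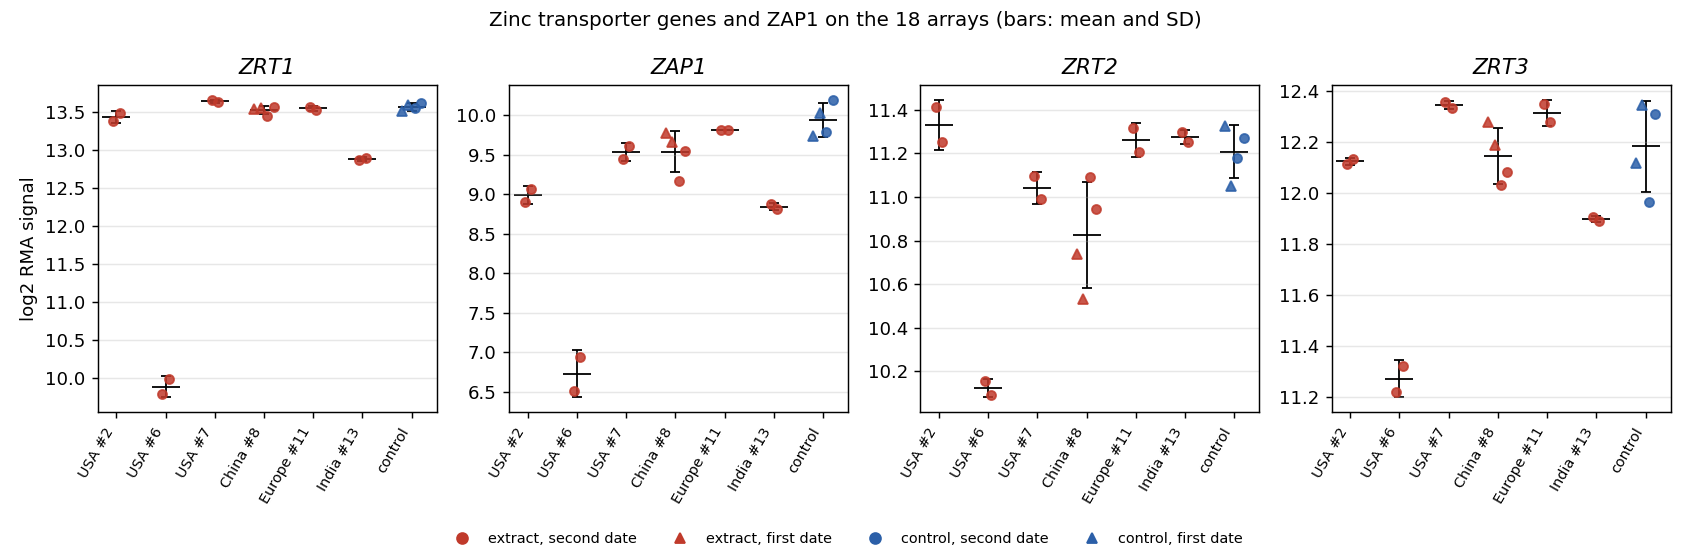
Log2 signal (vertical axis, a separate scale per gene) of ZRT1, ZAP1, ZRT2 and ZRT3 on each of the 18 arrays by condition, with circles and triangles for the 2 dates, dashes for group means and bars for the SD. The USA #6 arrays lie below all others for each gene, and India #13 comes next lowest for ZRT1, ZAP1 and ZRT3.

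ZRT2 encodes the low-affinity zinc transporter of the plasma membrane. It read 10.15 and 10.09 with USA #6, against 11.33, 11.05, 11.18 and 11.27 on the control arrays, a difference of -1.08 (SE 0.13). The second lowest condition was China #8 rather than India #13. China #8 arrays read 10.74 and 10.53 on the first date and 11.09 and 10.95 on the second. The fall of 0.38 (SE 0.10, adjusted p = 0.00923) held when any single array was left out. The call was lost with only the China #8 and control arrays in the fit. The fall was -0.55 within the first date. Within the second date it was -0.21 and did not pass (adjusted p = 0.101). The dates could not be shown to differ in this response, since the interaction of extract and date was 0.35 (SE 0.19, adjusted p = 0.534). ZRT2 was not called with the other 4 extracts. Its arrays read 11.41 and 11.25 with USA #2, 11.10 and 10.99 with USA #7, 11.32 and 11.21 with Europe #11, and 11.30 and 11.25 with India #13. Each of these pairs overlapped the control range, and the India #13 difference was 0.07 (95% confidence interval -0.20 to 0.34).

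ZRT3 encodes the exporter that releases zinc from the vacuole. USA #6 arrays read 11.22 and 11.32, against 12.12, 12.34, 11.96 and 12.31 on the control arrays, a difference of -0.91 (SE 0.10). India #13 arrays at 11.90 and 11.89 lay just below the lowest control array. The fall of 0.29 (SE 0.10, adjusted p = 0.0477) was lost without either India #13 array (adjusted p = 0.174 and 0.161), without control replicate 2 or 4, with the second date only (-0.24, adjusted p = 0.0835), with the date as a block (adjusted p = 0.0923) and after array medians were made equal (adjusted p = 0.0721). With the other extracts ZRT3 ranged between 12.03 and 12.36 on single arrays and no difference passed.

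ZRC1 encodes the transporter that carries zinc into the vacuole, the opposite direction to ZRT3. It was higher than control on average with all 6 extracts, although by little. USA #7 arrays read 12.35 and 12.36 and USA #2 arrays 12.21 and 12.21, against 11.91, 12.004, 11.92 and 11.95 on the control arrays. ZRC1 rose by 0.41 with USA #7 (SE 0.08, adjusted p = 0.00201) and by 0.27 with USA #2 (SE 0.08, adjusted p = 0.0390). The USA #7 call held without any single array. The USA #2 call was lost without either USA #2 array or without control replicate 1, 3 or 4, and after array medians were made equal (adjusted p between 0.0543 and 0.224). China #8 arrays at 12.22, 12.26, 12.07 and 11.97 overlapped control, with a rise of 0.19 (SE 0.07, adjusted p = 0.0412) that was 0.29 on the first date and 0.09 on the second. It was lost with the second date only (adjusted p = 0.429), without China #8 replicate 1 or 2 or control replicate 1, 3 or 4, and after array medians were made equal (adjusted p = 0.107). Europe #11 arrays at 12.17 and 12.15 lay above every control array, but the difference of 0.21 had an adjusted p of 0.0791. It passed with the second date only (0.22, adjusted p = 0.0440) and with the date as a block (0.27, adjusted p = 0.0151). India #13 at 12.13 and 11.97 and USA #6 at 11.95 and 12.02 overlapped control, with differences of 0.10 and 0.03.

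ZPS1 encodes a cell-wall protein that is induced in zinc-poor medium, and ADH4 an alcohol dehydrogenase that is also induced there. ZPS1 read 11.58 and 11.90 with USA #6, against 12.87, 13.53, 12.85 and 13.22 on the control arrays, a difference of -1.38 (SE 0.21). ADH4 read 10.21 and 10.24 with USA #6, against 10.69, 11.20, 10.50 and 10.98 on the control arrays, a difference of -0.62 (SE 0.16). Both genes varied more among the control arrays than ZRT1 did, with SDs of 0.32 and 0.31 against 0.05. With the other 5 extracts neither gene passed the test, but ZPS1 with China #8 passed with the second date only (-0.56, adjusted p = 0.0283) and with the date as a block (-0.41, adjusted p = 0.0404). ZPS1 read 12.45 and 12.93 with USA #2, 13.25 and 13.31 with USA #7, 12.93 and 13.01 with Europe #11, and 12.92 and 12.77 with India #13. ZPS1 on the China #8 arrays was 12.81, 13.09, 12.51 and 12.44. ADH4 lay between 10.29 and 10.83 on the 12 arrays of these extracts, and both genes overlapped control with China #8. Differences of ZPS1 from control ran between -0.43 with USA #2 and 0.16 with USA #7, and those of ADH4 between -0.29 with China #8 and -0.06 with India #13. ADH4 and ZRT1 are neighbouring protein-coding genes, with the non-coding SUT532 between them. MNT2, a mannosyltransferase gene on the other side of ADH4 that is also listed as a Zap1 target, was 0.04 to 0.18 above control with the 6 extracts and passed the test with none of the 5 tested.

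**Figure D3:**
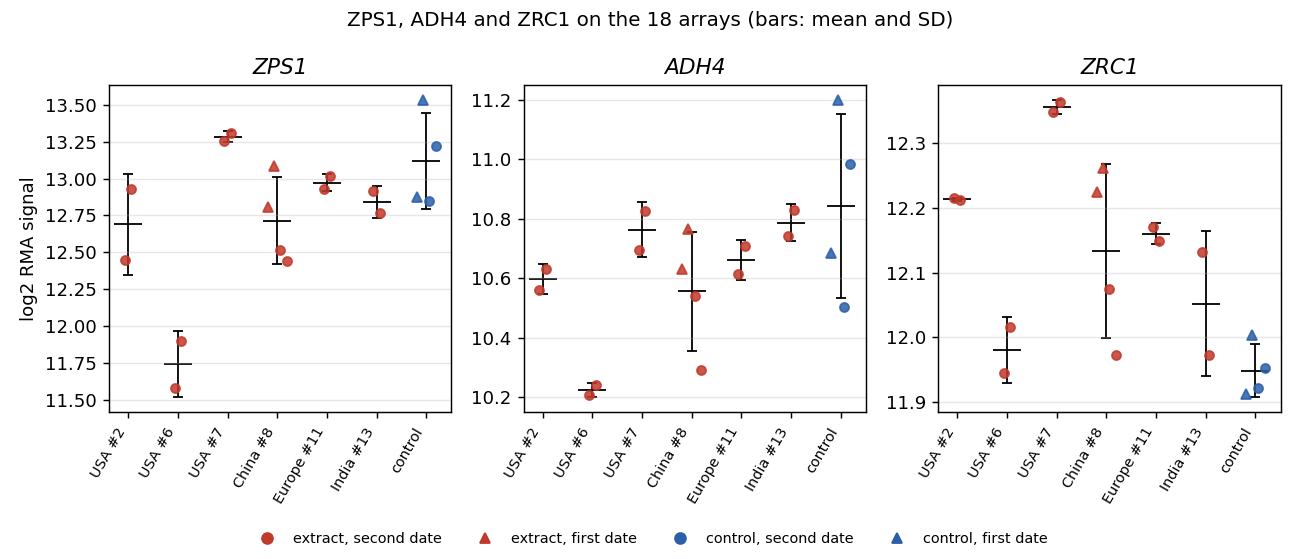
Log2 signal (vertical axis, a separate scale per gene) of ZPS1, ADH4 and ZRC1 on each of the 18 arrays by condition, with circles and triangles for the 2 dates, dashes for group means and bars for the SD. USA #6 is the lowest condition for ZPS1 and ADH4, and the USA #7 arrays stand highest for ZRC1, at 12.35 and 12.36.

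The replicate numbers of control and China #8 paired their arrays by the criterion used. That criterion cannot tell pairing from date, since the deviations it correlates hold the date difference. Over all groups 19 of 44 same-numbered pairs passed it. Where both groups held 2 arrays, the second pair repeated the correlation of the first by construction, so these pairs do not count separately. With the number as a block, 7 in place of 4 genes were called with China #8, the additional ones being ZPS1 (-0.41, adjusted p = 0.0115), ADH4 (-0.29, adjusted p = 0.0295) and IZH4 (-0.51, adjusted p = 0.0214). The China #8 response was also compared between dates by an interaction term in limma, which 0 of the 10 genes and 0% of all probe sets passed. Without adjustment 0 of the 10 genes and 620 probe sets had a p under 0.05.

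The IZH genes encode membrane proteins related to the adiponectin receptors of animals, and mutants in them show altered zinc homeostasis. IZH4 had the widest range of the 10 genes among the 5 extracts. It read 9.56 and 9.57 with USA #7, 9.24 and 9.23 with India #13, 8.66 and 8.96 with USA #2, and 8.51 and 8.39 with Europe #11. USA #6 arrays read 9.41 and 9.53 and China #8 arrays 6.85, 7.18, 7.61 and 6.98, against 7.05, 7.81, 7.56 and 8.25 on the control arrays. With 5 extracts every array therefore lay above every control array, whereas the China #8 arrays overlapped the lower control arrays. IZH4 rose by 1.90 with USA #7 (adjusted p = 0.000111), 1.57 with India #13 (adjusted p = 0.000598), 1.14 with USA #2 (adjusted p = 0.00794) and 0.78 with Europe #11 (adjusted p = 0.0385), each with an SE of 0.25. The USA #6 difference was 1.80, the fifth highest of all probe sets in that comparison. China #8 gave -0.51 (SE 0.21, adjusted p = 0.0605), which passed with the date as a block (adjusted p = 0.0361) and after array medians were made equal (-0.54, adjusted p = 0.0449). The calls with USA #7 and India #13 held without any single array. The Europe #11 call was lost without either Europe #11 array, without control replicate 3, with the second date only (0.55, adjusted p = 0.0778) and with the date as a block (0.60, adjusted p = 0.0729). The USA #2 call was lost without USA #2 replicate 2 (0.99, adjusted p = 0.137). In order of mean level USA #7, USA #6, India #13, USA #2, Europe #11, control and China #8 followed each other, and only control and China #8 overlapped.

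IZH2 was the only one of the 10 genes that was higher with all 5 extracts by the test. USA #7 arrays read 11.31 and 11.24, USA #2 arrays 10.81 and 10.96, Europe #11 arrays 10.94 and 10.90, and India #13 arrays 10.87 and 10.75. USA #6 arrays read 10.91 and 10.86 and China #8 arrays 10.46, 10.60, 10.997 and 10.51, against 10.25, 10.31, 10.12 and 10.63 on the control arrays. Every array of every extract except China #8 lay above every control array. The rise was 0.95 with USA #7 (SE 0.15, adjusted p = 0.000323), 0.60 with Europe #11 (adjusted p = 0.0111), 0.56 with USA #2 (adjusted p = 0.0176), 0.48 with India #13 (adjusted p = 0.0236) and 0.31 with China #8 (adjusted p = 0.0469). The USA #7 call held without any single array. With USA #2, Europe #11 and India #13 the call was lost without either array of the extract (adjusted p between 0.0605 and 0.207), and with India #13 also without control replicate 3 and with the second date only (0.44, adjusted p = 0.0616). The China #8 call was lost without China #8 replicate 2 or 3 or control replicate 1, 2 or 3, with the second date only (adjusted p = 0.117) and after array medians were made equal (adjusted p = 0.0682). The USA #6 difference was 0.56 (SE 0.15).

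IZH1 was higher on average with all 6 extracts but passed the test with none of the 5 tested. It read 10.15 and 10.46 with USA #2, 10.66 and 10.75 with USA #7, 10.58 and 10.74 with Europe #11, and 10.68 and 10.84 with India #13. USA #6 arrays read 10.44 and 10.35 and China #8 arrays 10.01, 10.13, 10.47 and 10.31, against 9.80, 10.02, 9.74 and 10.86 on the control arrays. Control replicate 4, at 10.86, thus lay above every extract array, and the other 3 control arrays lay at or below 10.02. The differences were 0.65 with India #13 (SE 0.24, adjusted p = 0.0518), 0.60 with USA #7 (adjusted p = 0.0574) and 0.56 with Europe #11 (adjusted p = 0.103). Without control replicate 4, IZH1 was called with all 5, from 0.38 with China #8 (adjusted p = 0.0193) and 0.45 with USA #2 (adjusted p = 0.0440) to 0.81 with Europe #11 (adjusted p = 0.00193), 0.85 with USA #7 (adjusted p = 0.000725) and 0.91 with India #13 (adjusted p = 0.000566). Without the control and China #8 arrays of the second date, the adjusted p was 0.0443 with USA #2, 0.000918 with USA #7, 0.00226 with Europe #11 and 0.000761 with India #13. The India #13 difference also passed after array medians were made equal (0.66, adjusted p = 0.0486). The remaining gene of the family, IZH3, moved the other way. It fell with the 5 extracts, by differences of -0.78 to -0.51 (adjusted p between 0.000108 and 0.00703, limma) and stood at -0.37 with USA #6.

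**Figure D4:**
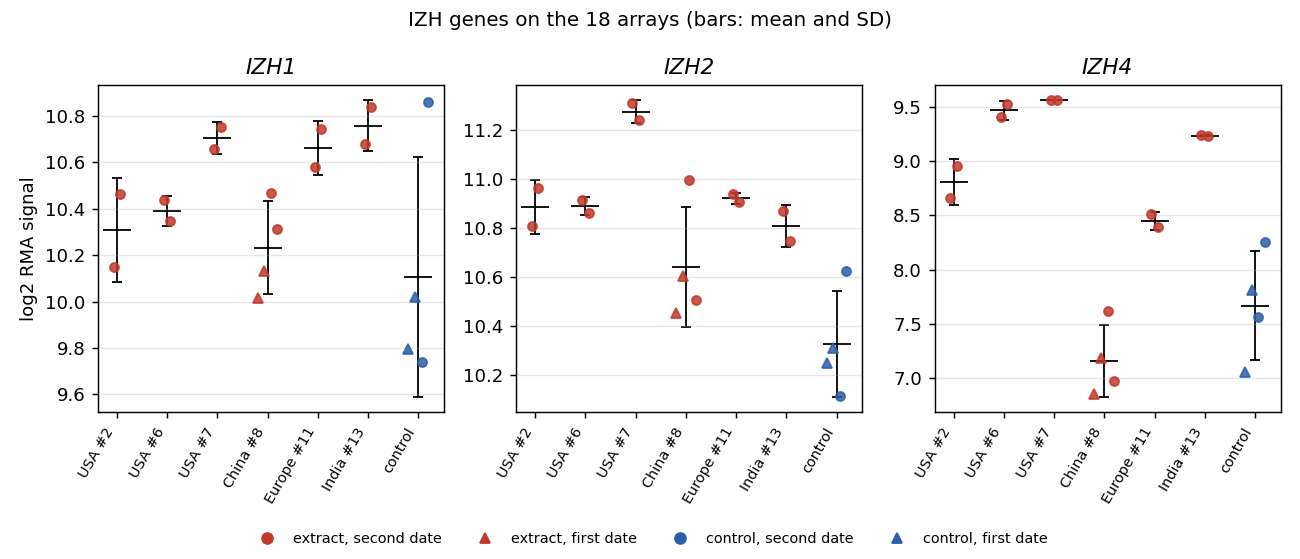
Log2 signal (vertical axis, a separate scale per gene) of IZH1, IZH2 and IZH4 on each of the 18 arrays by condition, with circles and triangles for the 2 dates, dashes for group means and bars for the SD. IZH4 lies above all control arrays with every extract except China #8, and 1 control array of IZH1 stands at 10.86, apart from the other 3.

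The study's own contrast pooled the 12 arrays of the 5 extracts against the 4 control arrays with the Bonferroni correction, by which 3.81% of all probe sets changed and 0 of the 10 genes. ZAP1 (-0.56, SE 0.19), ZRC1 (0.23, SE 0.07) and IZH2 (0.54, SE 0.14) had an unadjusted p under 0.05, and the same 3 genes passed with the Benjamini-Hochberg adjustment. ZRT1 differed by -0.14 (SE 0.13) and IZH4 by 0.73 (SE 0.48) in this contrast, both with extracts on either side of control.

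The probe sets most alike to ZRT1 over the 7 condition means were ZRT3 (Pearson r = 0.969), ZAP1 (0.967), a probe set without a gene name (0.950), ABF1 (0.942) and YLL032C (0.936). Those most alike to ZAP1 were ZRT1, the same unnamed probe set (0.963), ZRT3 (0.961), YLL032C (0.948) and UBX4 (0.929). These are descriptions over 7 points, and the USA #6 mean carries much of them. Without USA #6, r with ZRT1 was 0.909 for ZRT3, 0.765 for ZAP1, 0.679 for the unnamed probe set, 0.448 for ABF1 and 0.313 for YLL032C. ABF1 encodes a general DNA-binding regulator of transcription and replication. Its USA #6 difference from control was -0.28, and that of YLL032C -0.18, both small beside the -3.68 of ZRT1. Among the 10 genes themselves, ZRT1 and ZRT2 had r = 0.869 over 7 means and -0.383 without USA #6, so the pair were low together with USA #6 only. ZRC1 and IZH2 had r = 0.921 over the 6 means without USA #6.

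Other genes described as activated by Zap1 moved in both directions. Of 18 such genes, 2 were higher and 5 lower with USA #2, beside 10.7% and 8.48% of all probe sets. With USA #7 the counts were 3 and 5 beside 20.4% and 19.1%, and with China #8 3 and 7 beside 19.9% and 20.1%. With Europe #11 they were 2 and 3 beside 12.4% and 10%, and with India #13 3 and 6 beside 14.2% and 14.6%. Several of these counts are near the share over all probe sets, and nothing particular to the list is read from them. The median difference of the list was -0.22 with USA #6, between -0.14 and -0.00 with the other 5 extracts, and within 0.03 of 0 for all probe sets. FET4, which encodes a low-affinity iron transporter that also carries zinc, rose with 5 extracts, by 0.54 with Europe #11 to 0.91 with India #13 (adjusted p between 0.000138 and 0.0160, limma), and stood at 0.15 (SE 0.14) with USA #6. The FET4 difference between USA #6 and the other extracts was not tested. CKI1 and EKI1, which encode choline and ethanolamine kinases, and URA10, a gene of pyrimidine synthesis, fell with the 5 extracts (adjusted p at most 0.0442) and also lay below control with USA #6. CKI1 differences ran between -1.51 and -1.10 with the 5 extracts and stood at -1.48 with USA #6. Those of URA10 ran between -1.60 and -0.89 with -1.09 for USA #6, and those of EKI1 between -0.49 and -0.25 with -0.46 for USA #6.

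**Figure D5:**
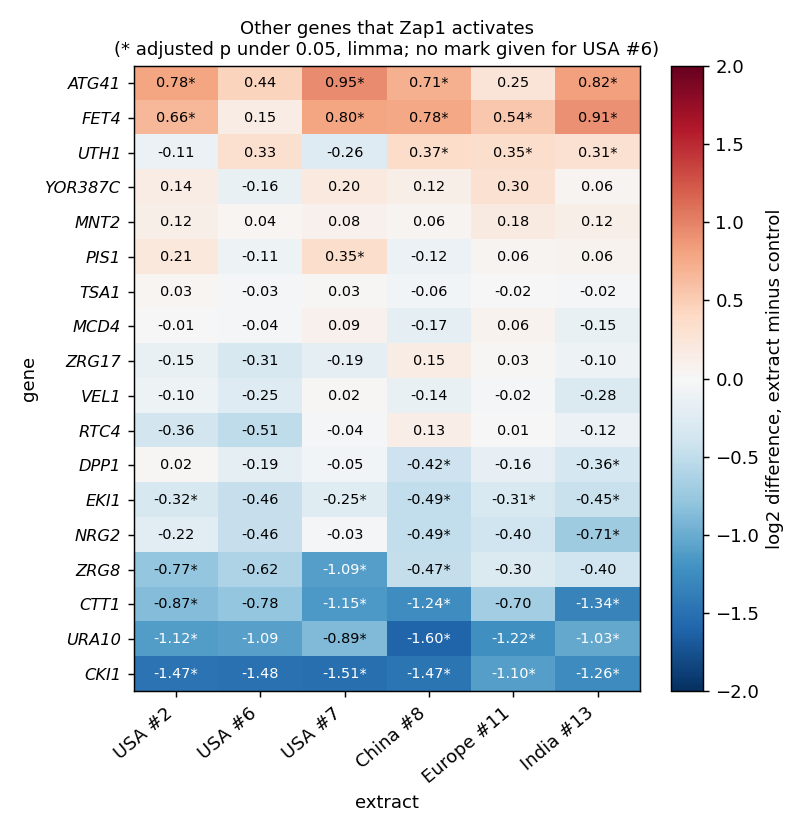
Log2 difference from control (colour and printed value) of 18 further genes described as activated by Zap1 (rows) with each of the 6 extracts (columns), with an asterisk where the adjusted p was under 0.05, left out for USA #6. FET4 rises with 5 extracts, at 0.54 to 0.91, but stands at 0.15 with USA #6, while CKI1, URA10 and EKI1 are below 0 in every column.

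A list of 5 genes that are lowered in zinc-limited yeast holds the alcohol dehydrogenase genes ADH1 and ADH3 and the sulfate assimilation genes MET3, MET14 and MET16. With India #13, 3 of these 5 genes rose, where 14.2% of all probe sets did, namely MET3 by 1.55 (SE 0.20, adjusted p = 9.38e-05), MET14 by 1.38 (SE 0.21, adjusted p = 0.000345) and MET16 by 0.78 (SE 0.16, adjusted p = 0.00361). With USA #6 these 3 genes stood below control, at -0.85, -0.64 and -0.44. MET16 fell with China #8 and Europe #11, with differences of -0.42 and -0.70. ADH3 passed with USA #7 alone of the 5, where it rose by 0.24 (adjusted p = 0.0283). ADH1 passed with none of them and stood at 0.03 with India #13. Its signal lay between 14.11 and 14.20 on all arrays, near the highest value of the table, 14.49. Whether its probe set could read a rise there was not tested.

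Among 9 measured genes of other zinc transport and homeostasis, which include FET4 and IZH3, 1 was higher and 3 lower with USA #2, 2 and 2 with USA #7, 2 and 4 with China #8, 1 and 3 with Europe #11, and 2 and 3 with India #13. Over all probe sets 10.7%, 20.4%, 19.9%, 12.4% and 14.2% were higher and 8.48%, 19.1%, 20.1%, 10% and 14.6% lower with these extracts in the same order, so that the USA #7 counts, for one, are near the background. The metallothionein-like gene CRS5 fell with the 5 extracts, with differences of -1.42 to -1.11, and was at -0.73 with USA #6. The metallothionein gene CUP1-1, whose probes can also bind its near-identical copy CUP1-2, fell with 4 of them, with differences of -0.29 to -0.21. Both genes are best known for copper binding. Among 6 abundant enzymes listed for their zinc, APE1, a vacuolar aminopeptidase, fell with USA #2, USA #7, China #8 and India #13, with differences of -0.75 to -0.38. The arginase gene CAR1 rose with USA #2, USA #7, China #8 and Europe #11, by 0.21 to 0.71, and arginase is mainly known as a manganese enzyme. SOD1, which encodes copper-zinc superoxide dismutase, fell by 0.18 with China #8 (adjusted p = 0.0266).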

How the data were processed

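Biotin-labelled RNA of 18 cultures was hybridized to Affymetrix Yeast Genome 2.0 arrays. The authors deposited RMA values, that is log2 signals after background correction, quantile normalization and summary by probe set, for 5900 probe sets. For RMA and limma as run by the authors, versions were not given in the sources used. Without further normalization, the values ranged between 2.73 and 14.49, with array medians between 9.55 and 9.64, so a shift of most genes one way cannot be seen. Precision is limited by how many arrays each group has. All tests ran on 5716 probe sets, after 137 Affymetrix controls and 47 reporters had been left out. The platform annotation gave 1 gene to 5498 of them and none to 218, and 12 names were updated by gene ID. Neighbouring genes were taken from RefSeq's annotation (assembly R64). Reference sequences were not used here.

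Each extract was compared with control in limma 3.58.1 (R 4.3.3) by a model of 7 groups over all 18 arrays, with Benjamini-Hochberg adjustment over all 5716 probe sets and a threshold of 0.05. An F-test in this model compared 5 extracts with each other, and an interaction term compared the China #8 response between dates. The pooled contrast followed the study's methods, with Bonferroni correction. The fits were tested on simulated data. Replicate numbers were taken as pairs where the deviations of every same-numbered pair correlated above 0.1. For control and China #8 the 4 correlations were 0.37, 0.70, 0.13 and 0.41, and these deviations hold the date difference. Over all groups 19 of 44 pairs passed, among which pairs between groups of 2 arrays repeat the same correlation.

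The 10 genes and the gene lists were chosen with earlier results of these data known. The lists are genes activated by Zap1, genes lowered in zinc-limited yeast, other zinc transport and homeostasis genes, abundant zinc enzymes, the strain's deleted genes and haploid-specific genes. The text names all 10 genes, up to 4 genes of each of the first 4 lists that were called with most extracts, the 5 probe sets most alike to ZRT1 and to ZAP1, and list genes adjacent to one of the 10. ADH1 is named beside them to complete its list. LEU2, URA3 and HIS3 are named as a check of the strain, and STE2 and RME1 were chosen after their values were seen. The alternatives covered probe-set filters, normalization, date, replicate block, the eBayes prior, adjustment and arrays left out.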

Additional observations from a re-analysis of the deposited data

How the results depend on the processing

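Counts of the 10 genes called under other settings are given here where they moved by over 1.5 times. With the replicate block, 7 genes were called with China #8 and 3 with India #13. With arrays of the second date only, 2 were called with China #8 and 3 with India #13. With only the compared groups in the fit, 1 was called with USA #2, 0 with China #8, 0 with Europe #11 and 3 with India #13. With Bonferroni in place of Benjamini-Hochberg, 0 were called with USA #2, 5 with USA #6, 1 with USA #7, 0 with China #8, 0 with Europe #11, 1 with India #13 and 2 among the 5 extracts, and with Benjamini-Hochberg the pooled contrast called 3. Leaving out 1 array at a time gave 1 to 4 genes with USA #2, 2 to 4 with China #8, 0 to 3 with Europe #11, 3 to 5 with India #13 and 3 to 5 among the 5 extracts, and the lows came without an array of that extract, except for China #8, where control replicate 2 was left out, and for the 5 extracts, where USA #2 replicate 1 was. The causes of these changes were not tested, except that fewer arrays or a stricter adjustment enter by construction.

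Directions turned only for differences that had not passed the test. With the date as a block and with the replicate block alike, ZRT3 with USA #2 became 0.0085, ADH4 with USA #7 0.039 and with India #13 0.063, ZRT2 with Europe #11 -0.053 and with India #13 -0.037, and ZPS1 with Europe #11 0.013. With the second date only, ADH4 became 0.018 with USA #7 and 0.042 with India #13. Among arrays of the first date, ZRT3 with China #8 became 0.0034. Leaving out 1 array turned the direction in 8 single fits. The differences concerned are given here with their ranges over all fits that left out 1 array. ZRC1 with USA #6 ranged between -0.0032 and 0.068, and ZRT1 with Europe #11 between -0.040 and 0.0037. ZRT2 with Europe #11 ranged between -0.0030 and 0.11, and ZRT3 with China #8 between -0.11 and 0.014. ADH4 ranged between -0.20 and 0.037 with USA #7 and between -0.17 and 0.062 with India #13. The replicate block ended the India #13 calls of ZRT3 (adjusted p = 0.0917) and IZH2 (0.0566), moved ZRT2 with USA #7 (-0.27, adjusted p = 0.0353) and ZRC1 with Europe #11 (0.27, adjusted p = 0.0174) past the threshold, left IZH2 with USA #6 at 0.48 (7 in place of 8 genes there), gave 7 in place of 6 genes among the 5 extracts, and changed no other call with an extract beyond those of China #8 given above.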
